A study of Mus musculus with 18 samples.

Results

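The 10 genes studied here move iron and copper into, within and out of intestinal cells or bind metal inside them, and they were followed through 18 RNA-seq libraries of sorted crypt cells. They were chosen by symbol, and all 10 of 10 were found among the 43346 genes of the count table. All mice carried the allele spelled Lgr5_eGFP_Iris_creERT2 in the sample labels, in which the stem cell gene Lgr5 drives a green fluorescent protein (GFP) and an inducible Cre, on a C57BL/6 background. They were untreated and 8 to 20 weeks old according to the sample labels. Crypts of the small intestine (SI) and large intestine (LI) were dissociated, and living Epcam+ epithelial cells were sorted by GFP into high, medium and low fractions. These fractions stand for Lgr5+ cells of the crypt centre, of its border, and of the rows above row 3 (row >3), so that there were 6 groups with 3 biological replicates each. Each library is a pool of sorted cells, and which mouse or which segment of the SI gave each replicate was not given in the sources used here. In such pools, fewer cells of a type and less RNA per cell cannot be told apart.

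Dietary iron enters the absorptive cell from the gut lumen after reduction by the ferric reductase encoded by Cybrd1, through the divalent metal transporter encoded by Slc11a2. It is stored in ferritin, whose heavy chain is encoded by Fth1, or leaves through ferroportin (Slc40a1) with the help of the copper oxidase hephaestin (Heph), while the transferrin receptor (Tfrc) takes up iron from the blood side and serves dividing cells in particular. Copper is pumped by the ATPases encoded by Atp7a, which exports it from enterocytes, and Atp7b, best known for its role in the liver. The metallothioneins encoded by Mt1 and Mt2 are small cysteine-rich proteins that bind zinc and copper, and their transcription is induced by metals.

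RNA hairpins called iron responsive elements are the known means by which iron regulatory proteins control several of these genes. The proteins bind to the loop when iron is scarce, which blocks translation of a messenger with the element in its 5′ UTR and protects from decay one with elements in its 3′ UTR. The windows are shown as a description of the genes, and their part in the differences below was not tested. The pattern searched was CNNNNNCAGTGN, with the 5 bases before and the 5 bases after the loop able to pair (G with T allowed), on the transcript strand of GENCODE M21 models (mm10). It was found in a UTR of 3 of the 10 genes, Tfrc, Fth1 and Slc40a1, and in 0.731% of 21901 protein-coding genes. Tfrc held 4 matches in its 3′ UTR, and Fth1 and Slc40a1 held 1 each in the 5′ UTR. An element that departs from the pattern searched would be missed, so a gene without a match may still hold one. The loop is in capitals in each window of 30 bases, printed 5′ to 3′.
Tfrc, chr16:32631219-32631248, plus strand: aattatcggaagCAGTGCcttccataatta
Tfrc, chr16:32631598-32631627, plus strand: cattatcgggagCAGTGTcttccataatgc
Tfrc, chr16:32631663-32631692, plus strand: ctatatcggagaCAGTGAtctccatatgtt
Tfrc, chr16:32631710-32631739, plus strand: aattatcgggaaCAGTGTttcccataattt
Fth1, chr19:9982732-9982761, plus strand: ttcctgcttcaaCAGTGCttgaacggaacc
Slc40a1, chr1:45925464-45925493, minus strand: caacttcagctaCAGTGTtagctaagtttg

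The libraries held 8312093 to 31940965 counts. Lgr5 ranged from 120 to 255 CPM (counts relative to the TMM-adjusted size of each library) in SI centre, 7.84 to 98.1 in SI border and 1.40 to 13.5 in SI row >3, and from 112 to 127, 61.4 to 82.7 and 6.70 to 24.0 in the same LI fractions. The SI replicate 3 libraries stood apart: their summed level of 5 LI identity markers was 396 CPM in centre, 1537 in border and 2350 in row >3, against 87.9 to 158 in the 6 other SI libraries and 562 to 1706 in the LI. Their summed level of 6 SI identity markers was 57.5, 325 and 440.0 CPM, against 54.3 to 866 in the other SI libraries and at most 7.18 in the LI. The same libraries also held the least Lgr5 of each SI fraction, at 120 CPM in centre, 7.84 in border and 1.40 in row >3. Results for the 10 genes that involve the SI are therefore given with and without these 3 libraries where that changes a call, and the gene lists by their counts. The replicate 2 libraries of all 6 groups carried Y-linked genes at a summed 172 to 201 CPM, against at most 0.226 CPM in the other 12, and 2 of the genes studied, Heph and Atp7a, are on the X chromosome.

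Levels can be compared between the genes only per length, here as CPM per kilobase of annotated exon. In SI centre cells Fth1 stood highest, at 80.4 ± 5.74 (SD, n = 3), followed by Tfrc at 33.6 ± 5.53 and Mt1 at 30.1 ± 7.20, whose spreads overlapped. Mt2 reached 16.99 ± 22.4, with most of that mean in replicate 3. Heph at 5.91 ± 1.06, Atp7a at 2.85 ± 0.232, Slc11a2 at 2.38 ± 0.452 and Atp7b at 1.26 ± 0.181 formed a middle range, in which the levels of Atp7a and Slc11a2 overlapped. Cybrd1 at 0.276 ± 0.178 and Slc40a1 at 0.146 ± 0.0366 were lowest and did not differ beyond their spread. In LI centre cells Fth1 stood highest at 83.7 ± 8.90. Next came Mt1 at 61.7 ± 10.6, Mt2 at 53.1 ± 12.4 and Tfrc at 47.6 ± 6.07, and the spreads of Mt1, Mt2 and Tfrc overlapped. There Atp7b fell near the bottom of the scale with 0.0442 ± 0.0472, and Cybrd1 came last with 0.00992 ± 0.00863.

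**Figure D1:**
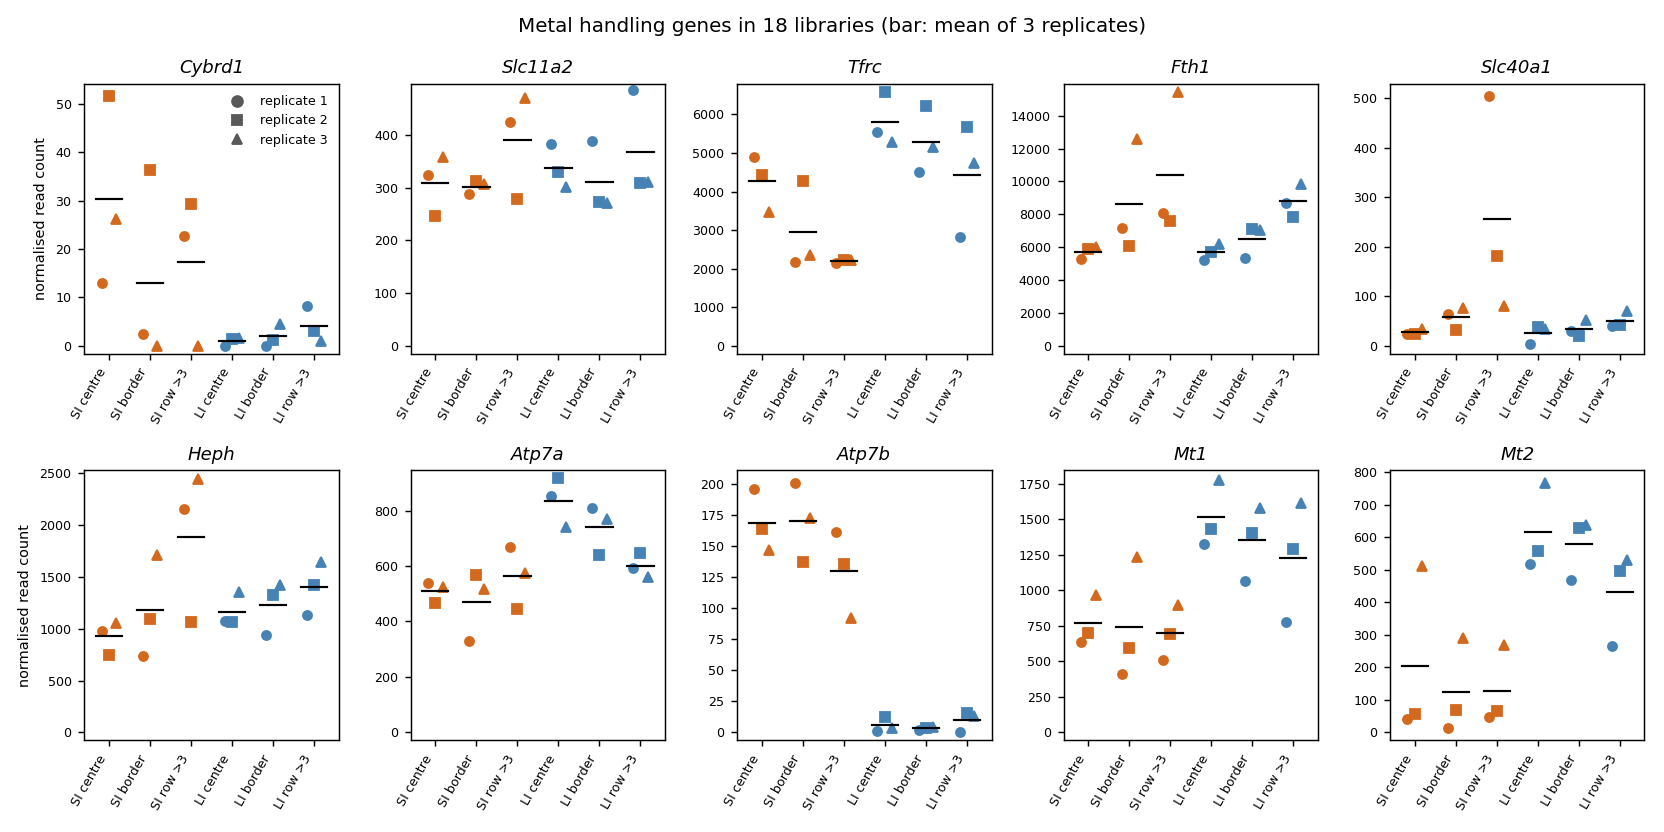
Normalised read counts (linear vertical axes from 0, one panel per gene) in the SI (orange) and LI (blue) by Lgr5 level, with a symbol for each replicate and a black bar for the mean of 3. Atp7b stays between 92.1 and 201 in the 9 SI libraries and at or below 15.9 in the 9 LI libraries, whereas Mt2 is high in the LI and, of the SI libraries, highest in replicate 3.

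The first comparison asked how these genes differ along the SI crypt, between Lgr5-low row >3 cells and Lgr5-high centre cells. The exporter pair Slc40a1 and Heph and the store Fth1 were higher in row >3, and the uptake receptor Tfrc was lower. These were 4 of 10 genes called by edgeR's quasi-likelihood test at an adjusted p under 0.05, where 13.2% of the 26717 genes tested were called. Per-library values below are the normalised counts (counts divided by the authors' size factors) of replicates 1, 2 and 3 in that order.

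Slc40a1 (ENSMUSG00000025993, chromosome 1, 45908068 to 45926523, minus strand) measured 23.5, 23.0 and 34.5 normalised counts in SI centre cells, compared with 505, 181 and 81.2 in SI row >3. All row >3 libraries lay above all centre libraries, although the row >3 values spanned a wide range, with replicate 3 lowest. Its log2 fold change was 3.28 (SE 0.60, adjusted p = 0.000944, edgeR), which is 9.70-fold, and it stayed called in all 29 alternatives, between 2.33 without SI row >3 replicate 1 and 3.89 without the SI replicate 3 libraries. SI border cells held 63.8, 32.4 and 76.8. In the LI the normalised counts of Slc40a1 were 3.53, 37.9 and 33.5 in centre, 30.3, 18.7 and 51.4 in border and 39.2, 42.5 and 70.7 in row >3. None of these 9 values reached the lowest SI row >3 library.

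Heph (ENSMUSG00000031209, X chromosome, 96455359 to 96574485, plus strand) oxidises the iron that ferroportin releases. It measured 979, 748 and 1058 normalised counts in SI centre cells, compared with 2158, 1067 and 2443 in SI row >3. The groups did not overlap, but row >3 replicate 2 was only just above centre replicate 3. The log2 fold change was 1.03 (SE 0.31, adjusted p = 0.0362, edgeR). Without the SI replicate 3 libraries it was 0.91 and no longer called (adjusted p = 0.0517, edgeR). The call was also lost without SI row >3 replicate 1 (0.92, adjusted p = 0.127, edgeR), SI row >3 replicate 3 (0.80, adjusted p = 0.137, edgeR), SI centre replicate 1 (1.07, adjusted p = 0.0945, edgeR) or SI centre replicate 2 (0.89, adjusted p = 0.148, edgeR). It was lost as well with no filter on low counts (adjusted p = 0.0585), with only the groups compared (0.0602), without all replicate 2 libraries (0.0799) and with edgeR's older quasi-likelihood setting (0.0558), so that 20 of 29 alternatives kept it. With replicate number as a block within each site, the log2 fold change was 0.98 (SE 0.20, adjusted p = 0.00155, edgeR). That fit called 22.8% of all genes in this comparison.

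Fth1 (ENSMUSG00000024661, chromosome 19, 9980598 to 9985098, plus strand) measured 5294, 5883 and 5993 normalised counts in SI centre cells, 7149.7, 6071 and 12567 in SI border and 8089, 7584 and 15440.4 in SI row >3. Every border and row >3 library lay above the highest centre library, and replicate 3 was highest in each fraction. In row >3 against centre the log2 fold change was 0.87 (SE 0.28, adjusted p = 0.0480, edgeR). It was 0.49 without the SI replicate 3 libraries, with a smaller error (SE 0.17, adjusted p = 0.0427, edgeR), and 0.46 when only SI row >3 replicate 3 was left out (adjusted p = 0.238, edgeR). In the main fit this call sat at the threshold, and it was kept in 13 of 29 alternatives, with a positive sign in all 29. Besides that library, it was lost when any 1 library of SI centre, LI centre or LI row >3, or LI border replicate 2 or 3, was left out, with adjusted p from 0.0505 to 0.155 (edgeR). The other 4 losses came with library size as the only scaling (adjusted p = 0.0511), with no filter (0.0770), with only the groups compared (0.0933) and without all replicate 2 libraries (0.0855, edgeR). With the replicate block within site, the log2 fold change was 0.76 (SE 0.16, adjusted p = 0.00142, edgeR), in the fit that called 22.8% of all genes.

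Tfrc (ENSMUSG00000022797, chromosome 16, 32608920 to 32632794, plus strand) ran in the opposite direction. Centre cells of the SI held 4899, 4426 and 3461 normalised counts, with 2184, 4275 and 2356 in SI border, and 2148, 2231 and 2221 in SI row >3. The row >3 libraries were tightly grouped and lay below every centre library, while of the border libraries replicate 1 lay within the row >3 range, replicate 2 within the centre range and replicate 3 between the groups. The log2 fold change of row >3 over centre was -0.95 (SE 0.25, adjusted p = 0.0145, edgeR), and -1.09 without the SI replicate 3 libraries (adjusted p = 0.0297, edgeR). Its call was lost without SI row >3 replicate 1 (adjusted p = 0.0722, edgeR), SI row >3 replicate 3 (adjusted p = 0.0525, edgeR), SI centre replicate 1 (adjusted p = 0.0696, edgeR) or all replicate 2 libraries (adjusted p = 0.0516, edgeR), and kept in 25 of 29 alternatives. With the replicate block within site, the log2 fold change was -0.95 (SE 0.20, adjusted p = 0.00237, edgeR), in the fit that called 22.8% of all genes. Within one library, where no scaling enters, Fth1 counts were 1.08, 1.33 and 1.73 times the Tfrc counts in SI centre, compared with 3.77, 3.40 and 6.95 times in SI row >3.

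The other 6 genes were not called between these fractions. Slc11a2, the apical iron transporter, measured 323, 247 and 358 normalised counts in SI centre cells, compared with 425, 278 and 470 in SI row >3, so the groups overlapped. Atp7a had 540, 465 and 526 in centre and 670, 445 and 576 in row >3, and Atp7b had 196, 164 and 146 in centre and 161, 136 and 92.1 in row >3. Cybrd1, Mt1 and Mt2 also overlapped between the fractions. The adjusted p of the genes not called reached 0.931 (edgeR).

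**Figure D2:**
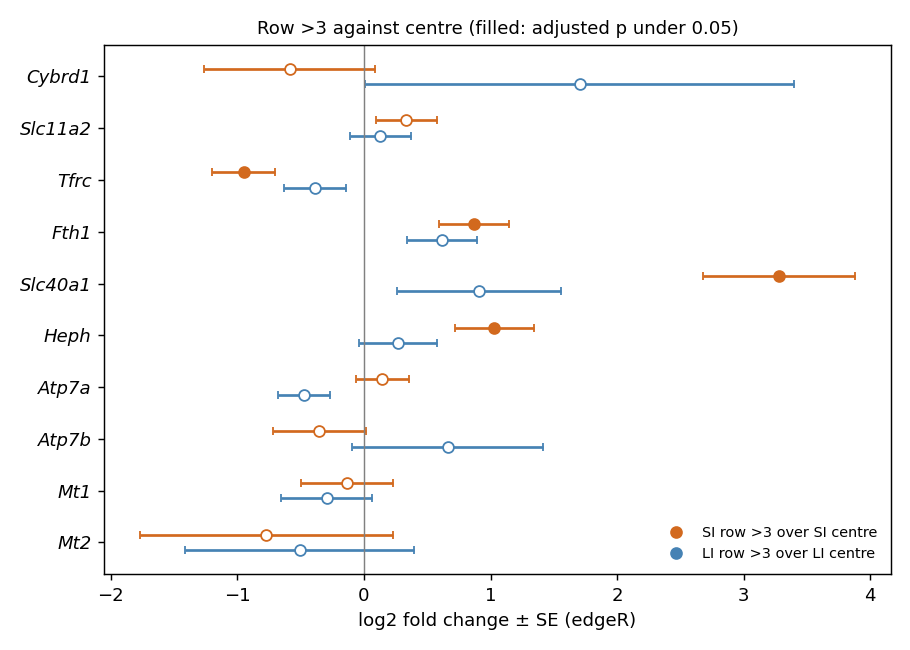
Log2 fold change of row >3 over centre cells (horizontal axis, points with ± 1 SE from edgeR) for each of the 10 genes in the SI (orange) and LI (blue), filled where the adjusted p was under 0.05. In the SI, Slc40a1 (3.28), Heph (1.03) and Fth1 (0.87) are filled to the right of 0 and Tfrc (-0.95) to the left, and no LI point is filled.

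Markers of cell types moved with these fractions. From SI centre to SI row >3 the summed level of 8 absorptive markers went from 66.7 to 225 CPM up to 585 to 1335 CPM, that of 6 goblet markers from 699 to 10290 CPM up to 31490 to 49630 CPM, and that of 6 stem cell markers from 2626 to 6874 CPM down to 438 to 1167 CPM. In SI centre the goblet markers summed to 699, 1227 and 10290 CPM in replicates 1, 2 and 3. The stem cell markers summed there to 6874, 6492 and 2626 CPM, and 4 tuft markers to 25.6, 33.2 and 379 CPM. Of the 6 goblet markers 4 were called higher and 1, Clca1, lower, from 32.5 to 50.3 CPM down to 5.05 to 13.8 CPM. The 5 enteroendocrine markers had positive fold changes with a median of 2.43 on the log2 scale, and the 4 tuft markers a median of 0.797, and none of these 9 was called. When the SI replicate 3 libraries were left out, 2 of the enteroendocrine and all 4 tuft markers were called higher, in a fit that called 17.1% of all genes. Their part in the differences above was not tested. Macrophages and erythroid cells also carry much ferroportin or transferrin receptor, and the cells had been sorted as Epcam+. The 7 immune markers summed to 3.80 to 13.7 CPM in SI row >3 against 6.33 to 15.2 CPM in SI centre. Most of this came from Ptprc, at 1.94 to 9.66 CPM in SI row >3 and 1.03 to 12.6 CPM in SI centre, and Cd68, at 1.86 to 4.20 CPM and 2.34 to 6.97 CPM. Csf1r and Lyz2 reached at most 0.184 CPM in these 2 groups, and Adgre1 had 0 counts. With all libraries 0 of the 7 immune markers were called. Without the SI replicate 3 libraries 1 was higher and 1 lower in SI row >3, in the fit that called 17.1% of all genes. Erythroid markers, among them the globins, summed to at most 0.407 CPM in every library. The part of such cells in the differences was not tested.

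The second comparison asked the same along the LI crypt. None of the 10 genes was called between LI row >3 and LI centre cells, where 0.0187% of all genes were, although 2 of them had an unadjusted p under 0.05, as did 1859 of the 26717 genes. DESeq2 called 0 of the 10 and 0.348% of all genes. Fth1 had normalised counts of 5228, 5731 and 6216 in LI centre, 5327, 7080.4 and 7015 in LI border and 8697, 7809 and 9848 in LI row >3, and the row >3 libraries lay above all others. Its log2 fold change was 0.62 (SE 0.28, adjusted p = 0.677, edgeR). With replicate number as a block within each site it was called, at 0.62 (SE 0.15, adjusted p = 0.0421, edgeR), and 2.59% of all genes were called in that fit. It was also called at 0.61 (SE 0.14, adjusted p = 0.0195, edgeR) in the fit without the SI replicate 3 libraries, in which the LI libraries were the same and the estimate of the spread was not. That fit called 1.90% of all genes in this comparison.

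Tfrc in the LI had normalised counts of 5548, 6578 and 5282 in centre, 4503, 6219 and 5156 in border and 2828, 5672 and 4752 in row >3. The groups overlapped, and replicate 1 was lowest in border and in row >3. Each row >3 library lay below the centre library of the same replicate number. With the replicate block within site the log2 fold change of row >3 over centre was -0.43 (SE 0.19, adjusted p = 0.317, edgeR), which was not called. Heph groups overlapped, with 1073, 1066 and 1352 in LI centre and 1132, 1423 and 1643 in LI row >3. Atp7a had 853, 915 and 739 in LI centre, 808, 639 and 771 in LI border and 593, 648 and 560 in LI row >3, so its row >3 libraries lay below all centre libraries without passing the test. From LI centre to LI row >3 the goblet markers went from 6913 to 11320 CPM up to 15230 to 24340 CPM and the stem cell markers from 1685 to 2031 CPM down to 611 to 1160 CPM, and the part of such cells was not tested.

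Whether the change from centre to row >3 differed between the sites was tested directly as SI minus LI. None of the 10 genes and 0% of all genes were called by edgeR, and 2 of the 10 had an unadjusted p under 0.05, as did 1800 of all genes tested. For Slc40a1 the difference between the log2 fold changes was 2.37 (SE 0.89, adjusted p = 0.542, edgeR), the lowest adjusted p of the 10 genes. It was 3.03 without the SI replicate 3 libraries (SE 0.87, adjusted p = 0.0647, edgeR), 8.14-fold against 5.16-fold, in a fit that called 3.27% of all genes and none of the 10. DESeq2 gave 2.24 (adjusted p = 0.283), the replicate block within site 2.32 (adjusted p = 0.146, edgeR) and the block over all libraries 2.42 (adjusted p = 0.390, edgeR). A call in the SI without one in the LI is thus not shown to differ between the sites.

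Border cells were compared with centre cells in each site. In the SI edgeR called none of the 10 genes and 0.0112% of all genes, and DESeq2 called none of the 10 and 0.782% of all genes. An unadjusted p under 0.05 was found for 2 of the 10 and for 2399 of all genes tested. In the LI the count was also 0, where both tools called 0% of all genes, with 0 of the 10 and 368 of all genes at an unadjusted p under 0.05. The difference of the border effect between SI and LI was not called by edgeR for any of the 10, with 0 of the 10 and 708 of all genes at an unadjusted p under 0.05 and 0% of all genes called. DESeq2 called none of the 10 and 0.00749% of all genes. The 3 SI border libraries spread widely for several genes, with Heph from 734 to 1712 and Mt1 from 411 to 1235 normalised counts.

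The third set of comparisons asked how the sites differ at the same Lgr5 level. The copper pump gene Atp7b separated them at all 3 levels, being counted in every SI library and close to absent from the LI counts. The genes called were Cybrd1 and Atp7b in centre cells (2 of 10, against 1.99% of all genes), Atp7b in border cells (1 of 10, against 1.75%), and Tfrc, Slc40a1 and Atp7b in row >3 cells (3 of 10, against 4.09%).

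Atp7b (ENSMUSG00000006567, chromosome 8, 21992785 to 22060305, minus strand) measured 196, 164 and 146 normalised counts in SI centre cells against 1.18, 12.4 and 3.27 in LI centre. In border cells the values were 201, 137 and 173 in the SI and 1.83, 3.74 and 4.47 in the LI. In row >3 cells they were 161, 136 and 92.1 in the SI and 0, 15.9 and 13.2 in the LI, where the count of 0 in LI row >3 replicate 1 allows up to 2.73 normalised counts (3 counts). No SI library overlapped with any LI library, SI replicate 3 included. On the log2 scale SI cells exceeded LI cells by 4.66 (SE 0.54, adjusted p = 2.81e-05, edgeR) in centre, by 5.52 (SE 0.61, adjusted p = 8.47e-06, edgeR) in border and by 3.65 (SE 0.50, adjusted p = 6.13e-05, edgeR) in row >3. All 3 were called in all 28 alternatives, from 4.30 to 6.04 in centre, 5.21 to 5.89 in border and 3.09 to 4.27 in row >3 cells. The size in centre cells depended on LI centre replicate 2, without which it was 6.03, and that in row >3 cells on LI row >3 replicate 2, without which it was 4.27. Paneth cell markers differed between the sites as well, with 5 of 6 called higher in the SI at each level and medians of 12.6, 11.7 and 11.7 on the log2 scale. Among the SI libraries, Paneth markers summed to 230 CPM in row >3 replicate 3, where Atp7b had 92.1 normalised counts, and to 9075 CPM in centre replicate 2, where it had 164. These markers summed to 644 CPM in border replicate 3, where Atp7b had 173, and to 1950 CPM in centre replicate 1, where it had 196. Their part in the Atp7b difference was not tested.

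Atp7a (ENSMUSG00000033792, X chromosome, 106027276 to 106124926, plus strand) leaned the other way. Its normalised counts were 540, 465 and 526 in SI centre against 853, 915 and 739 in LI centre, with no overlap, and 331, 569 and 515 in SI border against 808, 639 and 771 in LI border, again with no overlap. The log2 fold change in centre cells was -0.77 (SE 0.21, adjusted p = 0.0540, edgeR), just short of the threshold, and -0.75 without the SI replicate 3 libraries (adjusted p = 0.0239, edgeR), when 10.9% of all genes were called. It also passed when SI row >3 replicate 2 or 3 or any 1 SI border library was left out, with adjusted p from 0.0310 to 0.0493 (edgeR), with a filter on low expression (0.0358), with only the groups compared in the fit (0.0480), and with a replicate block that spans both sites (0.0274). DESeq2 called it in centre (adjusted p = 0.0152) and in border cells (adjusted p = 0.0395), where edgeR gave -0.69 (adjusted p = 0.0957). In row >3 cells the sites overlapped, at 670, 445 and 576 in the SI and 593, 648 and 560 in the LI. Per length, Atp7a stood at 2.85 ± 0.232 CPM per kilobase in SI centre and 4.85 ± 0.516 in LI centre (SD, n = 3).

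Cybrd1 (ENSMUSG00000027015, chromosome 2, 71117923 to 71142926, plus strand) was scarce everywhere. Its raw counts were 16, 56 and 28 in SI centre, 1, 28 and 0 in SI border and 33, 37 and 0 in SI row >3, against 0, 2 and 2, 0, 1 and 6, and 9, 4 and 1 in the same LI fractions. The counts of 0 in the SI replicate 3 libraries allow up to 3.16 normalised counts in border and 4.68 in row >3. In centre cells the normalised counts of 12.97, 51.6 and 26.1 in the SI did not overlap with 0, 1.46 and 1.64 in the LI, and the log2 fold change was 4.49 (SE 1.15, adjusted p = 0.0329, edgeR). That call was lost without SI centre replicate 2 (3.87, adjusted p = 0.196, edgeR), without any 1 of the LI centre libraries (adjusted p from 0.0955 to 0.163, edgeR) and without LI border replicate 2 or 3 (adjusted p = 0.0564 and 0.0511, edgeR). It was also lost with no filter (adjusted p = 0.0524), without all replicate 2 libraries (4.12, adjusted p = 0.710) and with the older quasi-likelihood setting (adjusted p = 0.164, edgeR), and 19 of 28 alternatives kept it. In row >3 cells Cybrd1 was not called with all libraries (2.20) and was called at 2.63 without the SI replicate 3 libraries (SE 0.81, adjusted p = 0.0269, edgeR). Replicate 2 was highest for Cybrd1 in each SI fraction, and so was the summed level of 6 Paneth cell markers, with 1950.0, 9075 and 2250.0 CPM in SI centre, 3781, 6913 and 644 CPM in SI border and 3597, 5292 and 230 CPM in SI row >3. The order did not hold throughout, with 1 Cybrd1 count in SI border replicate 1 and 28 in SI centre replicate 3. Replicate 2 also carried the Y-linked genes. Enteroendocrine markers were highest in it in SI centre (249 CPM) and SI row >3 (469 CPM), but not in SI border. Paneth markers summed to at most 12.5 CPM in the LI, and their part in the Cybrd1 difference was not tested.

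Tfrc and Slc40a1 differed between the sites in row >3 cells. For Tfrc the SI values of 2148, 2231 and 2221 lay below the LI values of 2828, 5672 and 4752, and the log2 fold change was -1.07 (SE 0.25, adjusted p = 0.0176, edgeR). The Tfrc call was lost without SI row >3 replicate 1 (adjusted p = 0.122, edgeR), SI row >3 replicate 2 (adjusted p = 0.0613, edgeR), LI row >3 replicate 2 (-0.84, adjusted p = 0.133, edgeR), LI row >3 replicate 3 (adjusted p = 0.0918, edgeR) or all replicate 2 libraries (-0.84, adjusted p = 0.233, edgeR), and kept in 23 of 28 alternatives. In border cells the sites did not overlap for Tfrc either, at -0.91 (SE 0.25, adjusted p = 0.0709, edgeR), and a replicate block that spans both sites gave -0.94 (SE 0.20, adjusted p = 0.00864, edgeR). This border difference also passed without SI border replicate 2 (-1.28, adjusted p = 0.00747, edgeR) or LI row >3 replicate 1 (adjusted p = 0.0267, edgeR), and with DESeq2 (-0.85, adjusted p = 0.0312).

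Slc40a1 was 2.31 higher on the log2 scale in SI than in LI row >3 cells (SE 0.55, adjusted p = 0.0187, edgeR), and 2.77 higher without the SI replicate 3 libraries (adjusted p = 0.00013, edgeR). Row >3 replicate 1 of the SI, with 505 normalised counts, weighed heavily: without it the log2 fold change was 1.36 (adjusted p = 0.317, edgeR). The Slc40a1 call was also lost without LI row >3 replicate 1 (2.15, adjusted p = 0.0822, edgeR) or LI row >3 replicate 2 (2.20, adjusted p = 0.114, edgeR), without all replicate 2 libraries (2.42, adjusted p = 0.223), with only the groups compared (adjusted p = 0.103) and with the older quasi-likelihood setting (adjusted p = 0.0584, edgeR). It was kept in 22 of 28 alternatives. In centre and border cells the sites overlapped for this gene. The absorptive markers also differed in row >3 cells, where their sum was 585 to 1335 CPM in the SI against 204 to 282 CPM in the LI. With all libraries 5 of 8 were called higher in the SI and 0 lower, with a median of 3.83 on the log2 scale. Without the SI replicate 3 libraries 5 of these markers were higher and 3 lower, in a fit that called 12.2% of all genes. Their part in the Slc40a1 and Tfrc differences was not tested.

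**Figure D3:**
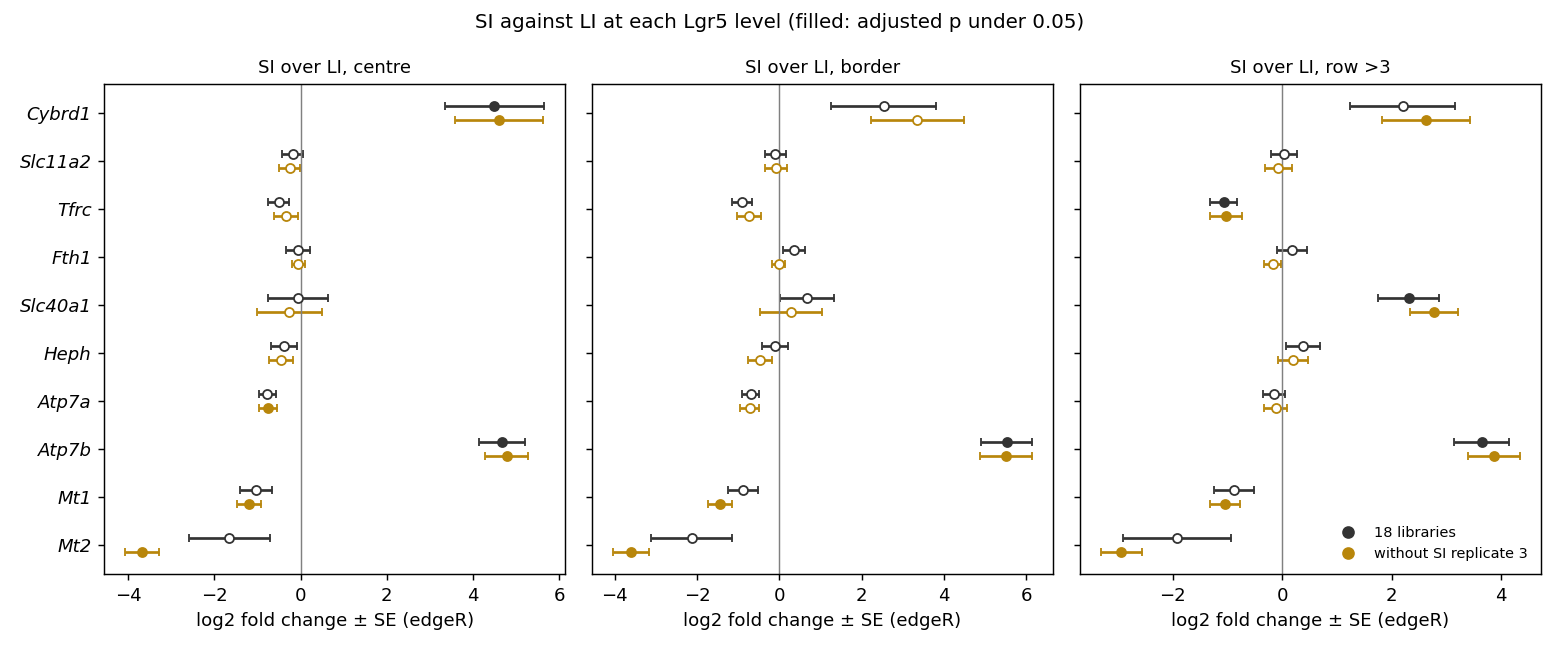
Log2 fold change of SI over LI cells (horizontal axes, ± 1 SE from edgeR) for the 10 genes in centre, border and row >3 cells, with all 18 libraries (dark) and without the 3 SI replicate 3 libraries (gold), filled where the adjusted p was under 0.05. Atp7b is filled in all 6 fits, and Mt1 and Mt2 are filled only in the fits without SI replicate 3, where Mt2 stands at -3.68, -3.60 and -2.94.

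The comparison of Mt2 between sites turned on the SI replicate 3 libraries, and that of Mt1 on these libraries and on the model. Mt2 (ENSMUSG00000031762, chromosome 8, 94172664 to 94173568, plus strand) measured 42.1, 56.2 and 512 normalised counts in SI centre cells, 14.2, 70.0 and 291 in SI border and 47.2, 67.1 and 269 in SI row >3. In the LI they were 519, 558 and 767 in centre, 467, 629 and 638 in border and 266, 497 and 531 in row >3. Replicate 3 held 10.4, 6.93 and 4.70 times the mean of the other 2 SI libraries at the 3 levels. These replicate 3 values lay below all LI libraries in centre and border cells and inside the LI range in row >3 cells. With all libraries the SI differed from the LI by a log2 fold change of -1.66 (SE 0.94, adjusted p = 0.480, edgeR) in centre, by -2.13 (SE 0.99, adjusted p = 0.365, edgeR) in border and by -1.92 in row >3. None was called. Without the SI replicate 3 libraries they were -3.68 (SE 0.39, adjusted p = 7.1e-07, edgeR), -3.60 (SE 0.44, adjusted p = 7.31e-06, edgeR) and -2.94 (SE 0.37, adjusted p = 6.9e-06, edgeR), in fits that called 10.9%, 8.10% and 12.2% of all genes. Leaving out SI centre replicate 3 alone gave -3.70 in centre cells (adjusted p = 0.0433, edgeR).

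Mt1 (ENSMUSG00000031765, chromosome 8, 94179082 to 94180327, plus strand) followed the same order with a smaller gap. Its normalised counts were 638, 700 and 970 in SI centre, 411, 592 and 1235 in SI border and 507, 697 and 896 in SI row >3, against 1330.3, 1434 and 1777 in LI centre, 1066, 1407 and 1583 in LI border and 779, 1294 and 1618 in LI row >3. In centre cells the sites did not overlap, even with replicate 3. With all libraries the log2 fold changes were -1.03, -0.89 and -0.88 in centre, border and row >3 cells, and none was called. They were -1.20 (adjusted p = 0.00647, edgeR), -1.45 (adjusted p = 0.00321, edgeR) and -1.04 (adjusted p = 0.0153, edgeR) without the SI replicate 3 libraries. Leaving out SI border replicate 3 alone gave -1.51 in border cells (adjusted p = 0.0140, edgeR) and, with the same centre libraries, -1.03 in centre cells (adjusted p = 0.0388, edgeR). With all libraries kept, a replicate block that spans both sites called Mt1 at all 3 levels, at -1.05 in centre (adjusted p = 0.00216, edgeR), -0.99 in border (adjusted p = 0.00398, edgeR) and -0.85 in row >3 cells (adjusted p = 0.00683, edgeR), in a fit that called 5.61%, 4.27% and 6.89% of all genes. In centre cells Mt1 also passed with only the groups compared (adjusted p = 0.0226, edgeR).

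Taken as a share within a library, Mt2 counts were 6.61%, 8.03% and 52.8% of the Mt1 counts in SI centre, 3.45%, 11.8% and 23.6% in SI border and 9.30%, 9.64% and 30.0% in SI row >3. The LI shares lay between 32.8% and 44.7% in all 9 libraries. This ratio needs no scaling between libraries, and it set the 6 SI libraries of replicates 1 and 2 apart from all others. The folds and shares for this pair rest on how reads shared by these related genes, if any, were assigned, which the sources used here do not state.

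**Figure D4:**
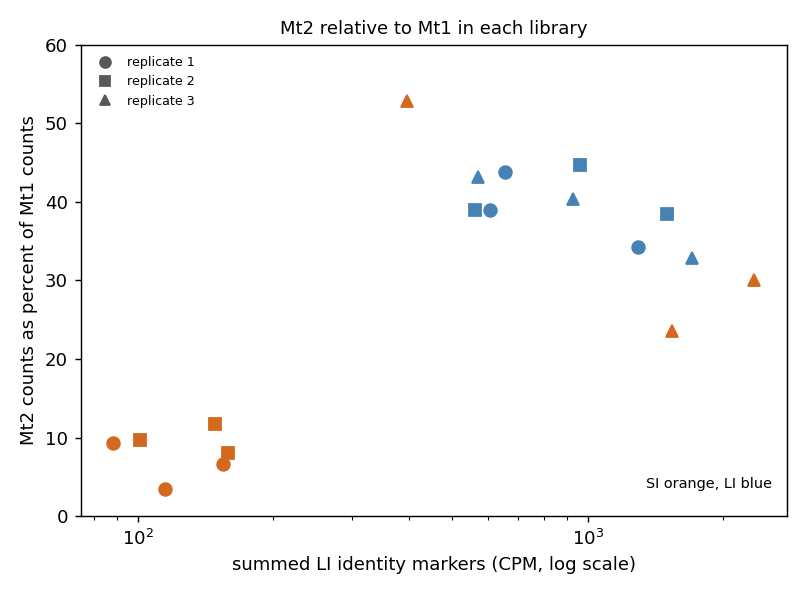
Mt2 counts as a percent of Mt1 counts (vertical axis from 0) against the summed level of 5 LI identity markers (CPM, log horizontal axis) in each of 18 libraries, SI in orange and LI in blue, with a symbol for each replicate. The 6 SI libraries of replicates 1 and 2 lie at 3.45% to 11.8% and at most 158 CPM, and the 3 SI replicate 3 libraries lie at 23.6% to 52.8% and 396 to 2350 CPM.

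The promoters of both metallothionein genes are shown as a description, and their part in the differences between the sites was not tested. The metal responsive element, the site of the zinc-sensing factor MTF1, has the core TGCACNC or TGCGCNC. These letters were searched on both strands in RefSeq promoter windows (GRCm38.p6) that run from 250 bases before to 50 bases after a start site, and no other motif was searched there. The window of Mt2 held 4 matches and that of Mt1 held 3. Relative to the start site, those of Mt2 lay at -223, -128, -50 and 4, and those of Mt1 at -23, 2 and 20. Of 32851 windows, 25.7% held at least 1 match, 1.97% at least 3 and 0.517% at least 4. Among the other genes with a window, Atp7a held 2 matches, Atp7b 1, a window of Tfrc 2, and those of Cybrd1 and Fth1 none. The core is in capitals in 5 of these 7 matches, printed as stretches of 30 bases, read 5′ to 3′ on the gene's strand, and a core written GNGTGCA or GNGCGCA lies on the other strand.
Mt1, chr8:94179055-94179084: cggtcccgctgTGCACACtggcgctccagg
Mt1, chr8:94179098-94179127: cgcccgaaaagTGCGCTCggctctgccaag
Mt2, chr8:94172384-94172413: agcatcgcctcTGCACCCggcccctcgggc
Mt2, chr8:94172479-94172508: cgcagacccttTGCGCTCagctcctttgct
Mt2, chr8:94172557-94172586: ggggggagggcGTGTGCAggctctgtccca
A match is a run of letters and not a measured binding site.

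Other genes of iron handling were counted in the same fits. Of 32 such genes, edgeR called 3 higher and 2 lower in SI row >3 than in SI centre cells, where 13.2% of all genes were called, with a median log2 fold change of 0.0955 against 0 over all genes. Slc39a14, a transporter of zinc and non-transferrin iron, was higher at 1.09 (SE 0.19, adjusted p = 0.000617, edgeR), as was the mitochondrial iron importer Slc25a37 at 0.81 (SE 0.22, adjusted p = 0.0181, edgeR). The RNA-binding iron chaperone Pcbp2 was lower at -0.56 (SE 0.16, adjusted p = 0.0226, edgeR), and so was the metalloreductase Steap2 at -0.91 (SE 0.27, adjusted p = 0.0250, edgeR). The fifth was Aco1, which encodes iron regulatory protein 1, higher at 0.46 (adjusted p = 0.0452, edgeR). When the SI replicate 3 libraries were left out, 5 were higher and 3 lower, and 2 were called in the difference of that change between the sites, where 0 were with all libraries. The shares of all genes called also rose, from 13.2% to 17.1% in the first comparison and from 0% to 3.27% in the second. None of the 32 was called between border and centre cells of either site or between LI row >3 and LI centre cells.

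Between the sites, the ferritin light chain gene Ftl1 was lower in the SI at all 3 levels, at -0.82 in centre (SE 0.21, adjusted p = 0.0374, edgeR), -0.83 in border (SE 0.21, adjusted p = 0.0393, edgeR) and -0.77 in row >3 (SE 0.21, adjusted p = 0.0348, edgeR). The heavy chain gene Fth1 was not called at any level. In row >3 cells, where 4.09% of all genes were called, 3 of the 32 genes were higher in the SI, Slc25a37 at 1.47 (SE 0.23, adjusted p = 0.000467, edgeR), Slc39a14 at 0.86 (SE 0.19, adjusted p = 0.0105, edgeR) and the transporter gene Flvcr2, with means of 15.6 normalised counts in the SI and 0.567 in the LI (adjusted p = 0.0232, edgeR). Flvcr2 was also higher in SI centre cells, with a mean of 19.4 against counts of 0 in all LI centre libraries (adjusted p = 0.0121, edgeR). In row >3 cells 3 genes were lower in the SI. Besides Ftl1 they were the ferrireductase gene Steap3 at -1.23 (SE 0.31, adjusted p = 0.0240, edgeR) and the haemochromatosis gene Hfe at -1.62 (adjusted p = 0.0260, edgeR). The median over the 32 genes stood at -0.278 when centre cells were compared, at -0.400 for border cells and at -0.204 for row >3 cells. Without the SI replicate 3 libraries 2 were higher and 4 lower in centre, 1 and 7 in border, and 3 and 4 in row >3 cells, in fits that called 10.9%, 8.10% and 12.2% of all genes against 1.99%, 1.75% and 4.09% with all libraries.

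Of 12 other genes of copper handling, 2 were called with all libraries, and both were higher in SI row >3 than in SI centre cells, where 13.2% of all genes were called. They were Slc31a1, the high-affinity copper importer, at 0.88 (SE 0.22, adjusted p = 0.00904, edgeR) and Mtf1, the gene of the factor named above, at 0.81 (SE 0.21, adjusted p = 0.0113, edgeR). The median of the 12 was 0.519 in that comparison and 0.233 in LI row >3 against LI centre cells, where 0 were called. Without the SI replicate 3 libraries the same counts stood along the crypts, and between the sites 1 of the 12 was higher and 1 lower in SI centre cells, 1 was lower in SI border cells and 1 was lower in SI row >3 cells, where those fits called 10.9%, 8.10% and 12.2% of all genes.

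Genes with the most similar pattern over the 18 libraries were sought for each gene called, by Pearson's r of log2(CPM + 1) among genes with a mean of at least 5 CPM. The libraries share sites and fractions, so the values only describe likeness. Tfrc was most like Hes1 (r = 0.972), 2810417H13Rik (0.949) and Eif1ax (0.948). Slc40a1 was most like Parp12 (0.941), Pepd (0.939) and Serpinb1a (0.927), Heph like Sppl2a (0.953), Gpr128 (0.948) and Pls1 (0.933), and Fth1 like Map2k1 (0.944), Hsd17b2 (0.921) and Pld1 (0.918). Atp7b went with Abcg5 (0.974), Abcc2 (0.971) and the Paneth cell defensin Defa24 (0.966). Cybrd1 went with Clps (0.880), Mptx2 (0.862) and Apbb2 (0.849) at a lower r.

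A few of these genes share sequence or position with others. Fth1 has a pseudogene listed in the table, Fth-ps2, at 2 to 45 counts, against 3028 to 11946 counts for Fth1. On the opposite strand, exons of Gm5475 (0 to 25 counts) overlap those of Slc11a2 by 402 bases and exons of Hsf3 (0 to 43 counts) overlap those of Heph by 29 bases. The antisense gene Gm45774, which shares 432 exon bases with Mt2, had 0 counts in all libraries.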

How the data were processed

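Sorted cells of 18 pools were sequenced by the authors with a stranded full-length kit as paired reads, trimmed, aligned to mm10 with STAR and counted per gene. The annotation release and strand setting behind the counts were not given in the sources used here. The deposited values were raw read counts and normalised counts, a signal that the authors made by dividing counts by DESeq2 size factors (recomputed here from the 2 tables, with a relative deviation of at most 5.33e-15). No reads were reprocessed.

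Tests ran on raw counts in edgeR 4.0.16 (R 4.3.3), with TMM factors, genes with a mean count above 0 (26717), 1 quasi-likelihood fit of 6 groups with 12 residual degrees of freedom, and Benjamini-Hochberg adjustment over all genes, called at an adjusted p under 0.05. Fold changes are SI over LI, and border or row >3 over centre. The code was tested on simulated data. DESeq2 1.42.0, other factors, filters, replicate blocks and left-out libraries were the alternatives.

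The 10 genes and all gene lists were chosen with earlier results of these data known. Statistics were printed for genes called in the main fit or in the fit with a replicate block within site, and for up to 4 called genes with the smallest adjusted p per list and comparison. Mt1, Mt2 and Atp7a, Tfrc in border cells, Cybrd1 in row >3 cells, Slc40a1 in the test between sites, and Aco1, Hfe and Ftl1 in row >3 cells were named beyond that rule after their values were seen. Same-numbered libraries deviated together within a site (r from 0.305 to 0.767 in the SI and 0.455 to 0.720 in the LI over 10223 genes), and between sites in border cells (0.199 to 0.232) but not in all centre or row >3 pairs. Positions and exon lengths are from GENCODE M21, promoter windows from RefSeq (GRCm38.p6). The floors given for counts of 0 cover counting error only, while SDs and SEs come from the spread between replicates, and 3 replicates per group limit the precision.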

Additional observations from a re-analysis of the deposited data

How the results depend on the processing

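The count of called genes kept within 1.5 times its value in most alternatives, but for SI against LI centre cells it held in only 15 of 28. The fold changes of 9 genes that were followed through all alternatives kept their sign. Among the other fold changes of the 10 genes, several that were not called turned sign without the SI replicate 3 libraries. For example, Mt2 in SI row >3 against SI centre cells went from -0.77 to 0.22, and Fth1 in SI over LI from 0.35 to -0.015 in border and from 0.19 to -0.17 in row >3 cells. The genes of the lists were compared only without the SI replicate 3 libraries. In SI row >3 against SI centre cells 4 of 10 genes were called, 2 with no filter on low counts or with only the groups compared in the fit, 1 without all replicate 2 libraries, and 1 to 4 with each library left out in turn. The share of all genes called there was 13.2% in the main fit, and it is not given for these alternatives. A fall in these counts can thus not be told from a fall over all genes. Without the SI replicate 3 libraries 2 of the 10 were higher and 1 lower, where 17.1% of all genes were called. In LI row >3 against LI centre cells the count of 0 became 1 with the replicate block within site or without the SI replicate 3 libraries, and stayed at 0 with any single library left out. The share of all genes called there, 0.0187% in the main fit, was 2.59% with that block and 1.90% without those libraries. Between the sites, the 2 genes called in centre cells became 1 with no filter, without all replicate 2 libraries or with edgeR's older quasi-likelihood setting (added after the data were seen), 3 with DESeq2, 4 with the replicate block over all libraries or with only the groups compared, 5 without the SI replicate 3 libraries, and 1 to 4 with single libraries left out. In border cells 1 became 3 with DESeq2, with the replicate block over all libraries or without the SI replicate 3 libraries, and 1 to 2 with single libraries left out, while the share of all genes called there, 1.75%, was 4.54% with DESeq2, 4.27% with that block and 8.10% without those libraries. In row >3 cells 3 became 6 without the SI replicate 3 libraries, 1 without all replicate 2 libraries, and 1 to 3 with single libraries left out. The share of all genes called, 1.99% in centre and 4.09% in row >3 cells, was 10.9% and 12.2% without the SI replicate 3 libraries and 5.61% and 6.89% with the block over all libraries. With DESeq2 it was 4.64% in centre cells. The share is not given for the other alternatives between the sites, so changes in their counts cannot be told from changes over all genes. The causes were not tested. The block within site changed no call of the 10 genes other than that of Fth1 in the LI. Counts limit Cybrd1 in particular, with 0 to 56 counts per library, and Atp7b in the LI with 0 to 21. DESeq2 gave no adjusted p for Mt2.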

Other observations

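Genes of zinc transport also differed along the SI crypt. Of 19 genes of zinc transport and other metallothioneins that were tested, 8 were higher in SI row >3 than in SI centre cells and 0 lower (edgeR, adjusted p under 0.05, where 13.2% of all genes were called), with a median log2 fold change of 0.732 against 0 over all genes. The importers Slc39a11 (1.24, SE 0.18, adjusted p = 9.96e-05, edgeR) and Slc39a4 (1.26, SE 0.24, adjusted p = 0.00112, edgeR), the Golgi transporter Slc30a7 (1.18, SE 0.18, adjusted p = 0.000145, edgeR) and Slc39a1 (0.81, SE 0.18, adjusted p = 0.00442, edgeR) had the smallest adjusted p. Without the SI replicate 3 libraries 8 were higher and 2 lower, where 17.1% of all genes were called. In LI row >3 against LI centre cells 0 of the 19 were called, with a median of 0.349, and 1 was higher without the SI replicate 3 libraries (1.90% of all genes). The difference of this change between the sites, SI minus LI, was called for 0 of the 19 with all libraries, where 0% of all genes were called. Without the SI replicate 3 libraries it was called higher for 1, where 3.27% of all genes were called. Between the sites 1 was higher and 1 lower in SI centre cells with all libraries, where 1.99% of all genes were called, and 2 were higher and 6 lower without those 3, where 10.9% were. Slc30a2 was higher in the SI than in the LI at all 3 levels, at 4.36 in centre (SE 0.55, adjusted p = 0.000186, edgeR), 4.92 in border (SE 0.61, adjusted p = 9.53e-05, edgeR) and 4.54 in row >3 (SE 0.62, adjusted p = 0.000122, edgeR).

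Of 12 genes of haem synthesis, 2 were higher and 1 lower in SI row >3 than in SI centre cells, where 13.2% of all genes were called, and the counts were the same without the SI replicate 3 libraries. Abcb10 was higher at 0.88 (SE 0.24, adjusted p = 0.0172, edgeR) and Alas1, the first enzyme of the pathway, at 0.80 (SE 0.23, adjusted p = 0.0214, edgeR), while Urod was lower at -0.72 (SE 0.20, adjusted p = 0.0196, edgeR). Urod was also lower in SI than in LI row >3 cells, at -0.79 (SE 0.20, adjusted p = 0.0268, edgeR), the only haem synthesis gene called between the sites with all libraries. Without the SI replicate 3 libraries 2 were lower in SI centre, 1 in SI border and 2 in SI row >3 cells, and 1 was higher in LI row >3 than in LI centre cells, in fits that called 10.9%, 8.10%, 12.2% and 1.90% of all genes.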
